A study of Homo sapiens with 44 samples.

Results

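Genes whose counted exons form a single unbroken block were examined for m6A enrichment and for their response to the METTL3 inhibitor STM2457 in neuroblastoma cells. A gene was a member if the exons listed in the count tables merged into 1 block on 1 nuclear chromosome and its mean level in the DMSO input libraries of Kelly cells at 1 day was at least 10 counts per 1e6 assigned fragments (CPM). Histone and zinc finger genes and JUN, JUNB, JUND, IER2 and IER5 were left out by name. Of 19923 genes in the tables, 1092 had 1 block, 1015 of those passed the exclusion by name, and 135 reached 10 CPM. Of the 1015, 387 had no count in any of the 44 libraries. The members were chosen by their level, which is a description and is not tested here. That rule used no ratio and no change, but the inputs it read also enter both Kelly 1 day comparisons. The libraries at 6 days, of NGP and of the xenograft played no part in it. Just inside the minimum lay WDR5B at 10.2 CPM, RTL8B at 10.4 CPM and HDDC3 at 10.5 CPM, and among those just outside it were MOCS3 at 9.91 CPM and GJD3 at 9.54 CPM.

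A block of counted exons was not the same as an absence of introns. In the canonical transcripts of GENCODE 44, 100 of the 135 members had a single exon, 33 were spliced, and 2 (BX255925.3 and C16orf91) could not be matched. For 28 of the 33 a transcript that retains an intron is annotated, and such transcripts fuse exons into a block. The spliced members include the ribosomal protein genes RPL13, RPL18, RPL23, RPS15 and FAU, the mitochondrial proteins UQCRB and UQCRQ, and TRMT112 and CUTA. Of the single-exon members, 84 had no spliced transcript annotated and 16 had one besides the canonical one. The 135 are therefore called single-block genes below, and the 100 and the 33 are reported apart. This split was made after the values had been seen.

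N6-methyladenosine (m6A) is the most common internal mark of mRNA. It is written by a complex whose catalytic subunit is METTL3, mostly at adenosines within a short consensus that contains GGAC, and it commonly shortens an mRNA's life. Splicing deposits exon junction complexes near exon boundaries, and these complexes keep the writer away from nearby sequence, so that long exons and unspliced mRNAs are known as places where m6A collects. The genes without introns include those of several SOX family transcription factors and of the protocadherin-β cluster of neurons.

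The series was built to ask what METTL3 inhibition does to the growth and differentiation of neuroblastoma. Kelly and NGP are established human neuroblastoma lines with amplified MYCN, both labelled wild type, and received 8 µM STM2457 or DMSO, Kelly for 1 or 6 days and NGP for 6 days. Kelly cells grown as subcutaneous tumours in nude mice received STM2457 at 50 mg/kg by intraperitoneal injection once daily for 14 days, or vehicle, labelled DMSO as in culture. Each of the 16 groups held either input libraries (sonicated poly(A) RNA) or RIP libraries (fragments recovered with an m6A antibody), 3 per group in culture and 2 in the xenograft. The labels do not say whether replicates were separate cultures or animals, so the p-values measure only the spread between these libraries, which may be technical.

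The total of assigned fragments (in units of 1e6) lay between 24.1 and 36.5 per library for the 1 day Kelly culture and between 5.77 and 31.5 for the 6 day one. The NGP libraries had between 5.49 and 24.1 and the tumours between 2.15 and 11.8. All 12 neuroblastoma markers looked at were at 1 CPM or more in the mean of every input group except NGP with DMSO, where 11 were. In the xenograft inputs, 3 of 6 stroma markers (COL1A2, DCN and LUM) were at 0 with either treatment and COL3A1 also with STM2457, and the list summed to between 113 and 165 CPM. Fewer cells of a type and less RNA per cell cannot be told apart in these bulk samples. Each member was set beside 5 multi-exon genes of the same level in the Kelly 1 day DMSO inputs, 675 in all and 500 for the single-exon members. The median level was 28.8 CPM in both sets.

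The single-exon members differed from their matched genes in sequence as well as in exon number. Their canonical transcripts had a median length of 2890 bases and 53.8% GC, against 3730 bases, 46.1% GC and 10 exons for the matched genes. The spliced members were short, with a median of 1028 bases and 4 exons. The motif GGACT, a common form of the m6A consensus, occurred 1.05 times per kilobase in the single-exon members, 0.858 times in their matched genes and 0.716 times in the spliced members. Its reverse complement AGTCC, counted as a control for base composition, occurred 0.694, 0.736 and 0.539 times. Multi-exon genes matched on GC content as well as level had 0.991 GGACT and 0.866 AGTCC per kilobase. The shorter GGAC occurred 4.24 times per kilobase in the single-exon members. It occurred 3.35 times in their matched genes and 4.44 times in those matched on GC as well. At least 1 GGACT was present in 97% of the single-exon members and in 57.6% of the spliced members.

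Coding windows of 90 bases from 7 single-exon members are shown because the results turn on these genes: MAB21L2 and RANBP6 were among the 6 members with the highest minimum ratio over the 3 cultures, PCDHB14 stands for the protocadherin-β cluster, KCTD12, SOX4 and FNDC10 were among those whose RNA rose with STM2457, and EIF5AL1 was depleted. Each window is the coding stretch of its gene with the most GGACT and, among equals, the most GGAC. The motifs in it were therefore fixed by the choice and are not typical of the gene. All are transcript sequences of the reference genome (GRCh38, GENCODE 44), written 5′ to 3′, with every GGAC in capitals. MAB21L2 lies at chr4:150583856-150583945 (plus strand), RANBP6 at chr9:6014581-6014670 (minus), PCDHB14 at chr5:141224981-141225070 (plus), KCTD12 at chr13:76885847-76885936 (minus), SOX4 at chr6:21595806-21595895 (plus), FNDC10 at chr1:1599427-1599516 (minus) and EIF5AL1 at chr10:79512650-79512739 (plus).
MAB21L2: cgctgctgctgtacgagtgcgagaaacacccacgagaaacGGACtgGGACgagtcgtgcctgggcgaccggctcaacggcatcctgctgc
RANBP6: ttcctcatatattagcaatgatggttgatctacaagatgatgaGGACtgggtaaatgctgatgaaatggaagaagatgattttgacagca
PCDHB14: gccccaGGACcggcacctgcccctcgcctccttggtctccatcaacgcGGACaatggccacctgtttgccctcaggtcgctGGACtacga
KCTD12: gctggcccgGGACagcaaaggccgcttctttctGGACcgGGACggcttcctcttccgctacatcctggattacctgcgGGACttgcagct
SOX4: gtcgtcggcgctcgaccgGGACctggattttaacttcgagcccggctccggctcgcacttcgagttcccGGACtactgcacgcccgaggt
FNDC10: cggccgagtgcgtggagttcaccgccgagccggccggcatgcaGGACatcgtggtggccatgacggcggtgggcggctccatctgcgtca
EIF5AL1: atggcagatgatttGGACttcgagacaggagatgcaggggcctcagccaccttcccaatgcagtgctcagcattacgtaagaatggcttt

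Windows with the motif are also common when they are laid end to end and not chosen for it. Of 1311 coding windows of 90 bases in the single-exon members, 39.6% held GGAC, against 34% over all genes of at least 10 CPM and 39.2% in the spliced members. Its reverse complement GTCC was in 25.9%, 24.8% and 27.6% of them. A match is a description of the letters, and the depleted EIF5AL1 has GGAC too.

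In DMSO-treated Kelly cells the single-exon members were far more abundant in the RIP libraries than in the inputs. At 1 day, 92 of 100 were enriched and 2 were depleted, against 26.3% of all 13669 genes tested that were enriched and 29.1% that were depleted. Enriched or depleted here means a RIP over input ratio of at least 2-fold in either direction with an adjusted p under 0.05 (edgeR quasi-likelihood test, Benjamini-Hochberg over all genes). Their median log2 ratio was 2.43 (interquartile range 1.88 to 3.06), or 5.39-fold, and 98 of 100 ratios were above 0. Of the 500 matched multi-exon genes, 129 were enriched and 181 depleted, with a median of −0.51. The 33 spliced members stayed close to the matched genes, with 9 enriched, 13 depleted and a median of −0.55. Over all 135 members the counts were 103 enriched and 15 depleted. The 84 members with no spliced transcript gave 76 enriched, 2 depleted and a median of 2.34.

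In Kelly cells at 6 days, in libraries that the choice of members did not use, 90 single-exon members were enriched and 2 depleted, with a median of 2.46 (1.83 to 3.04), where 25.8% of 13324 genes were enriched and 27.3% depleted. The spliced members had 9 enriched and 15 depleted with a median of −0.83, and the matched genes 113 and 149 of 500 with a median of −0.53. In NGP the difference was smaller: 47 single-exon members were enriched and 4 depleted, median 0.92 (0.37 to 1.84), against 20.9% and 19% of 13088 genes and a median of 0.13 for the matched genes. In the xenograft the median was 2.15 (1.51 to 2.96) and 93 of 100 ratios were above 0. There 19 single-exon members were called enriched and none depleted, against 1.61% and 2.15% of 12626 genes. DESeq2 called 48 enriched and 1 depleted. The xenograft count turned on single libraries. It fell to between 0 and 4 without any 1 of its 4 inputs or 2 DMSO RIP libraries, and rose to 51 and 53 without STM2457 RIP replicate 1 or 2.

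**Figure D1:**
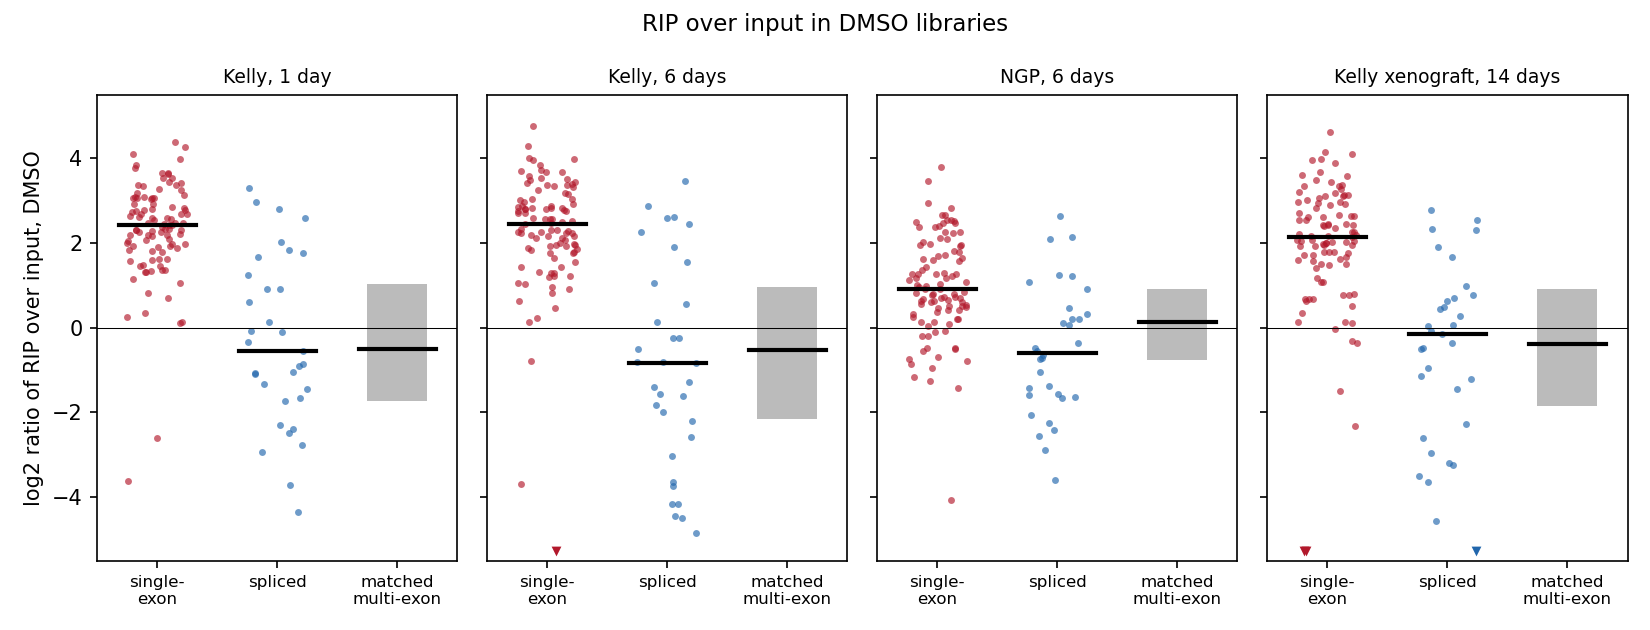
RIP over input in the DMSO libraries (log2 ratio from the edgeR fit, y axis) for each single-exon member and each spliced member, in the 4 experiments. The shaded bars and their lines give the interquartile range and median of the matched multi-exon genes, and triangles mark genes below the axis. Single-exon members have medians of 2.43, 2.46, 0.92 and 2.15, and spliced members lie around or below the matched genes.

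The distance between single-exon members and their matched genes, as a difference of median log2 ratios, was 2.94 and 2.99 in the Kelly cultures at 1 and 6 days, 0.78 in NGP and 2.54 in the xenograft. Without DMSO RIP replicate 1 the NGP distance was 0.44, and it lay between 0.74 and 0.98 without any other 1 of its libraries. Matching on GC content as well as level gave 2.497, 2.56, 1.08 and 2.15. Matching on level and the length of the longest exon gave 2.15, 2.21, 0.54 and 1.97. Among all genes of at least 10 CPM whose longest exon exceeds 4000 bases, the median ratio in Kelly at 1 day was 2.59 for 38 single-exon genes and 0.37 for 1613 genes with more exons. Between 2000 and 4000 bases it was 2.54 for 51 single-exon genes and 0.04 for 2363 others.

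Ratios fell with the number of exons over the whole transcriptome, and genes with 2 exons lay nearly as high as those with 1. Exons here are those of the canonical transcript. For Kelly at 1 day the median log2 ratio was 2.47 for the 113 genes of at least 10 CPM with 1 exon. The median was 2.12 for the 289 genes with 2. It was 0.20 for 1581 genes with 3 to 5 exons, −0.65 for 2670 with 6 to 10 and −0.81 for 4333 with more than 10. The order was the same at 6 days and in the xenograft (2.16, 1.495, 0.10, −0.49 and −0.60), and in NGP the range was narrower, from 1.01 to −0.16. The 2-exon genes are spliced. Spliced members had 2 to 7 exons, so this class is not separate from the members.

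**Figure D2:**
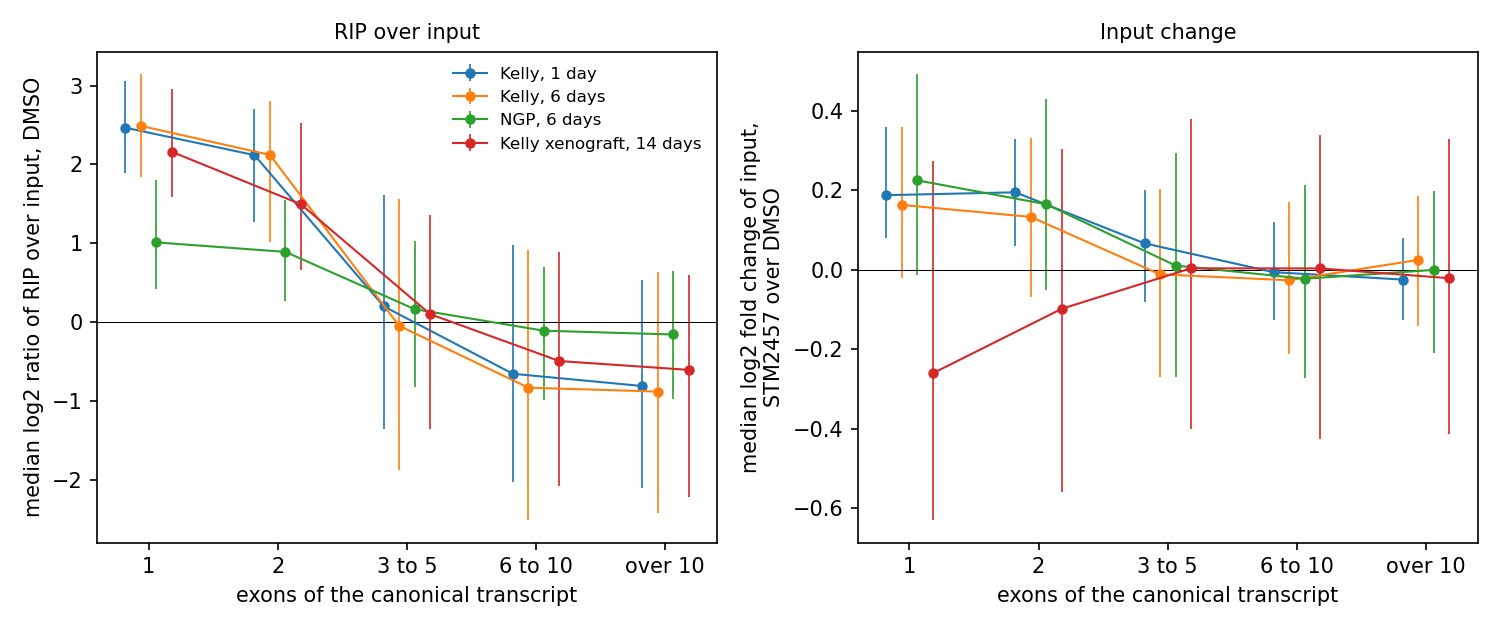
Median and interquartile range, by number of exons in the canonical transcript, of the RIP over input ratio in DMSO (left, log2) and of the input change with STM2457 (right, log2), for genes of at least 10 CPM. In Kelly at 1 day the medians on the left run from 2.47 for 1 exon to −0.81 for more than 10, and those on the right from 0.19 to −0.02.

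Among single-exon members, the order of the ratios was compared for 3 pairs of experiments. Spearman's rho over the 100 genes was 0.776 between Kelly at 1 and 6 days, 0.786 between Kelly at 6 days and the xenograft, and 0.532 between Kelly at 6 days and NGP. Over multi-exon genes of at least 10 CPM it was 0.905, 0.79 and 0.569. These are descriptions across genes that share libraries within each experiment and length and base composition between them. In Kelly at 1 day the ratio was nearly unrelated to the gene's level (rho 0.00218) and transcript length (0.0124) and weakly related to GGACT per kilobase (0.217). In NGP it fell with GC content (rho −0.485 over the single-exon members and −0.526 over multi-exon genes). NGP DMSO RIP replicate 1 stood apart, with a median single-exon ratio of 1.502 against 0.70 and 0.61 in the other 2. In all, 47 single-exon members were enriched in all 3 cultures, and 5 (CSNK2A3, EIF5AL1, FZD2, SLC18A3 and UQCRHL) in none. The same counts over all genes are not given.

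The 6 members with the highest minimum ratio over the 3 cultures were PCDHB14, MAB21L2, PCDHB5, RANBP6, EXOC8 and MRFAP1L1. PCDHB14 (chr5:141222932-141227759) encodes a protocadherin of the β cluster. Its inputs in Kelly at 1 day were 11.2, 11.3 and 9.34 CPM and its RIP libraries 93.5, 82.8 and 103 CPM, so every RIP library lay far above every input. The log2 ratio was 3.19 (SE 0.14, edgeR quasi-likelihood adjusted p = 2.51e-10), with 3.37 at 6 days and 2.95 in NGP. The xenograft value of 3.20 missed the threshold (SE 1.72, edgeR adjusted p = 0.306). MAB21L2, a regulator of eye and body wall development, had inputs of 31.1, 28.9 and 27.9 CPM and RIP libraries of 294, 303 and 329 CPM in Kelly at 1 day. Its log2 ratios were 3.45 (SE 0.08, edgeR adjusted p = 1.71e-12), 3.58, 2.84 and 3.61 over the 4 experiments in the order given above. MAB21L2 lies within LRBA and shares 1491 counted bases with it, and PCDHB14 shares 169 with AC244517.10; the counting did not separate strands.

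RANBP6, a relative of the nuclear import receptor importin-5 that overlaps no other counted gene, went from inputs of 31.1, 33.8 and 36.6 CPM to RIP libraries of 196, 214 and 221 CPM. Its log2 ratio was 2.69 in Kelly at 1 day, 3.85 at 6 days and 3.48 in NGP, the last well above the NGP median of the single-exon members. EXOC8, a subunit of the exocyst complex, had 3.36, 3.69 and 2.65. PCDHB5 had 2.73, 3.15 and 3.80, although its NGP inputs were near the floor at 0.362, 0 and 0.199 CPM. MRFAP1L1 was the sixth by this rule and is a spliced member, with 2.80, 2.60 and 2.64. The largest ratio in Kelly at 1 day was 4.40 for NCBP2AS2, which was picked out after its value was seen.

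The 6 members with the lowest maximum ratio over the cultures were EIF5AL1 and the spliced RPL18, RPL13, RPS15, FAU and TRMT112. EIF5AL1, an intronless copy of the translation factor gene EIF5A, had Kelly 1 day inputs of 25.0, 25.0 and 23.8 CPM and RIP libraries of 0.539, 2.54 and 2.75 CPM. Its log2 ratio was −3.62 (SE 0.95, edgeR adjusted p = 0.00418), and the spliced EIF5A had −3.05. Some single-exon members have close relatives in the genome, with ratios on both sides of 0. Stretches of 50 bases shared with another gene's canonical transcript made up 70.8% of CSNK2A3 (with CSNK2A1), 53.7% of UQCRHL (with UQCRH), 45.7% of HNRNPA1L2 (with HNRNPA1) and 11.6% of EIF5AL1 (with EIF5A), so reads could be split between copies. CSNK2A3 had a ratio of −2.60 and its spliced relative −1.22, UQCRHL 0.26 and −0.57, and HNRNPA1L2 1.62 and −2.61. HSPA1B, a heat shock protein gene, shared 71.6% with the equally intronless HSPA1A and had a ratio of 1.97. Of the 100 single-exon members, 70 shared no such stretch.

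By role, 7 members were listed as transcription factors (SOX4, SOX11, SOX12, POU3F1, CEBPB, INSM2 and PURB). The role lists do not cover every member. All 7 were enriched in Kelly at 1 day and 6 of 7 at 6 days. In NGP 1 of 7 was enriched, and SOX4 was that gene with a ratio of 1.98. Of 9 receptor, transporter and adhesion genes (FZD2, SLITRK1, ADRA2A, ADRA2C, P2RY1 and 4 PCDHB genes), 8 were enriched in both Kelly cultures and 5 of the 8 tested in NGP. All 8 chromatin and nuclear proteins (TSPYL4, CENPB, TIGD1, TIGD5, RTL8A, RTL8B, RTL8C and PNMA1) were enriched in both Kelly cultures and 6 in NGP. All 5 genes of the ubiquitin and chaperone list (HSPA1B, KBTBD6, KLHL9, KCTD12 and CHMP1B) were enriched in both Kelly cultures. Nearly all single-exon members were enriched in Kelly, as given above, so these counts do not set any list apart. Of the 6 genes on the RNA factor list (RRS1, CSTF2T, HNRNPA1L2, RPP25, EIF5AL1 and THAP11), 5 were enriched and EIF5AL1 was depleted. THAP11 was counted on that list although it encodes a DNA-binding factor, and it is not among the 7 listed transcription factors. The 13 genes of the exon junction complex, all spliced and none of them members, had 2 enriched and 3 depleted with a median of −0.14 in Kelly at 1 day. Of 20 mRNA export genes, 19 could be tested, 2 were enriched and 11 depleted.

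Of the 5 ribosomal protein genes among the spliced members, 4 were among the 6 lowest named above. RPL18, a protein of the large ribosomal subunit, fell from inputs of 1413, 1391 and 1307 CPM to RIP libraries of 66.8, 54.7 and 70.7 CPM in Kelly at 1 day. Its log2 ratio was −4.36 (SE 0.10, edgeR adjusted p = 1.86e-12) and −4.50 at 6 days. RPS15 had −2.93 and −4.16, and FAU −1.45 and −3.04. These genes also had the highest levels per length, with 449 CPM per kilobase for RPS15, 355 for RPL18 and 290 for FAU, against 179 for PCBP1, the highest single-exon member. Ratios are relative to each library's total. When RIP libraries were scaled to the 13 mitochondrially encoded mRNAs, the median over all genes moved from −0.07 to 1.57 in Kelly at 1 day and from −0.10 to 4.77 at 6 days, and at 6 days RPL18 (0.48), RPS15 (0.91), FAU (2.24) and EIF5AL1 (1.29) changed sign. The single-exon medians then were 4.07 and 7.42, and over all 135 members 117 were enriched and 4 depleted at 1 day and 126 and 1 at 6 days. Of all genes, 50.9% were then enriched and 8.16% depleted at 1 day, and 83% and 0.48% at 6 days. In NGP that scaling gave 89 enriched and 7 depleted members in place of 54 and 17, against 40.3% and 7.38% of all genes, and in the xenograft it called no gene. RLE size factors moved the all-gene median to −0.25 at 6 days and −0.30 in the xenograft.

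With STM2457, the RNA level of many single-exon members rose slightly in Kelly cells at 1 day. In the inputs, 41 of 100 rose and none fell at an adjusted p under 0.05 (edgeR), where 9.41% of 13246 genes tested rose and 8.06% fell. The median change was 0.19 on the log2 scale (interquartile range 0.09 to 0.36), or 1.14-fold, and 90 of 100 changes were above 0. Of the 500 matched multi-exon genes, 40 rose and 34 fell, with a median of 0.01. The 33 spliced members had 2 rises, 5 falls and a median of −0.02. Over all 135 members 44 rose and 5 fell. When the inputs of all experiments were fitted together, with 1 shared spread, 1 single-exon rise and no fall were called at 1 day. No share over all genes is given for this shared fit, here or below.

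At 6 days in Kelly, 33 single-exon members rose and 9 fell (11.9% and 14.7% of 12773 genes), with a median of 0.16, and 23 of the genes that rose at 1 day rose again. These 23 are 56.1% of the 41 and 69.7% of the 33. Overlaps between cultures were counted for members only, with no share over all genes. Of the spliced members 17 fell and 2 rose, with a median of −0.26, and over all 135 members 35 rose and 26 fell. The shared fit called 8 single-exon rises and no fall at 6 days. In NGP, 8 of 99 tested rose and 1 fell (2.07% and 2.16% of 12289 genes), with a median of 0.23, while 11 of 486 matched genes rose. Those 8, among them the α2A-adrenergic receptor gene ADRA2A, had all risen in Kelly at 6 days. The shared fit called 13 rises and 1 fall in NGP. The NGP calls rested on single inputs: without DMSO replicate 1 or 3, or STM2457 replicate 1 or 2, the 9 single-exon calls became 3, 1, 1 and 4.

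In the xenograft no gene was called in the inputs by edgeR (0 of 11329 genes in either direction). Of the 97 single-exon members tested, 9 had an unadjusted p under 0.05, and their median change was −0.16. DESeq2 called 2 rises and 1 fall among them. The shared fit called 5 rises and 21 falls, and leaving out STM2457 input replicate 1 or 2 gave 17 and 9 calls. The shares of all genes called in these other fits are not given. Whether their counts are particular to the members was not tested. The largest nominal rise among the role-list genes was that of HSPA1B, from 77.4 and 81.4 CPM to 157 and 208 CPM (log2 change 1.33, edgeR unadjusted p = 0.000306, adjusted p = 0.325).

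**Figure D3:**
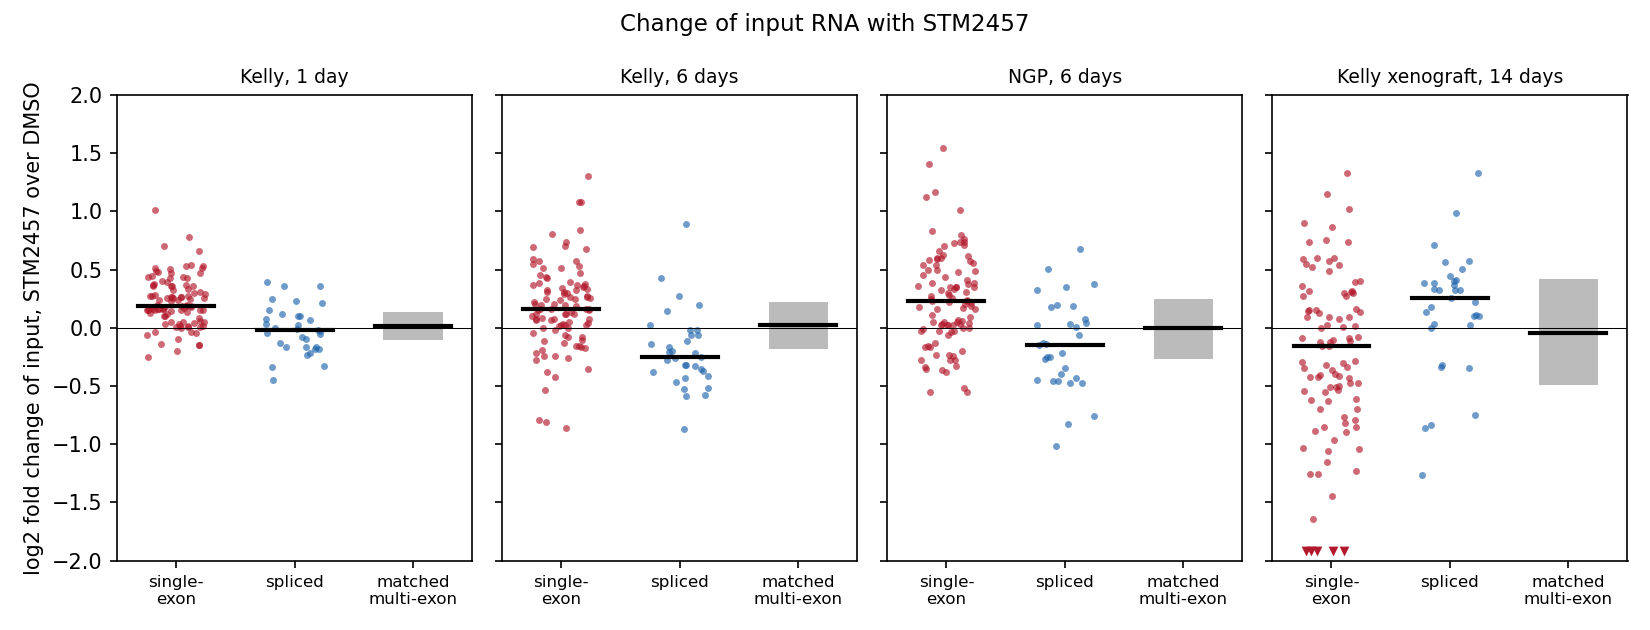
Log2 change of the input level with STM2457 against DMSO (y axis, edgeR fit) for each single-exon and spliced member in the 4 experiments. Shaded bars and lines give the interquartile range and median of the matched multi-exon genes, and triangles mark genes below the axis. Single-exon medians are 0.19, 0.16 and 0.23 in the cultures and −0.16 in the xenograft.

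Library by library, the single-exon members stood higher against their matched genes in every STM2457 input of the 3 cultures than in any DMSO input of the same experiment. At 1 day in Kelly the median difference from the matched genes was 0.00, 0.09 and −0.07 in the DMSO inputs and 0.19, 0.20 and 0.22 in the STM2457 inputs (log2, against the mean of the DMSO inputs). At 6 days it was 0.03, −0.02 and 0.00 against 0.11, 0.19 and 0.24, and in NGP −0.06, 0.00 and 0.01 against 0.29, 0.26 and 0.12. In the xenograft it was 0.08 and −0.09 against −0.23 and −0.09, and the groups overlapped. The share of all counts that fell on the 100 genes was 0.462% to 0.506% in the Kelly 1 day DMSO inputs and 0.560% to 0.572% with STM2457.

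Another value moved with this shift in Kelly at 1 day only, among the cultures. The summed level of 383 olfactory receptor genes, which these cells are not known to use, was 2.73 to 3.35 CPM in the DMSO inputs and 3.60 to 4.36 CPM in the STM2457 inputs of Kelly at 1 day. At 6 days those sums were 1.74 to 3.40 and 1.87 to 2.06 CPM, so the groups overlapped there. In NGP they were 0.537 to 2.44 and 1.15 to 2.37 CPM and overlapped too. The part of these low-level reads in the result was not tested.

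**Figure D4:**
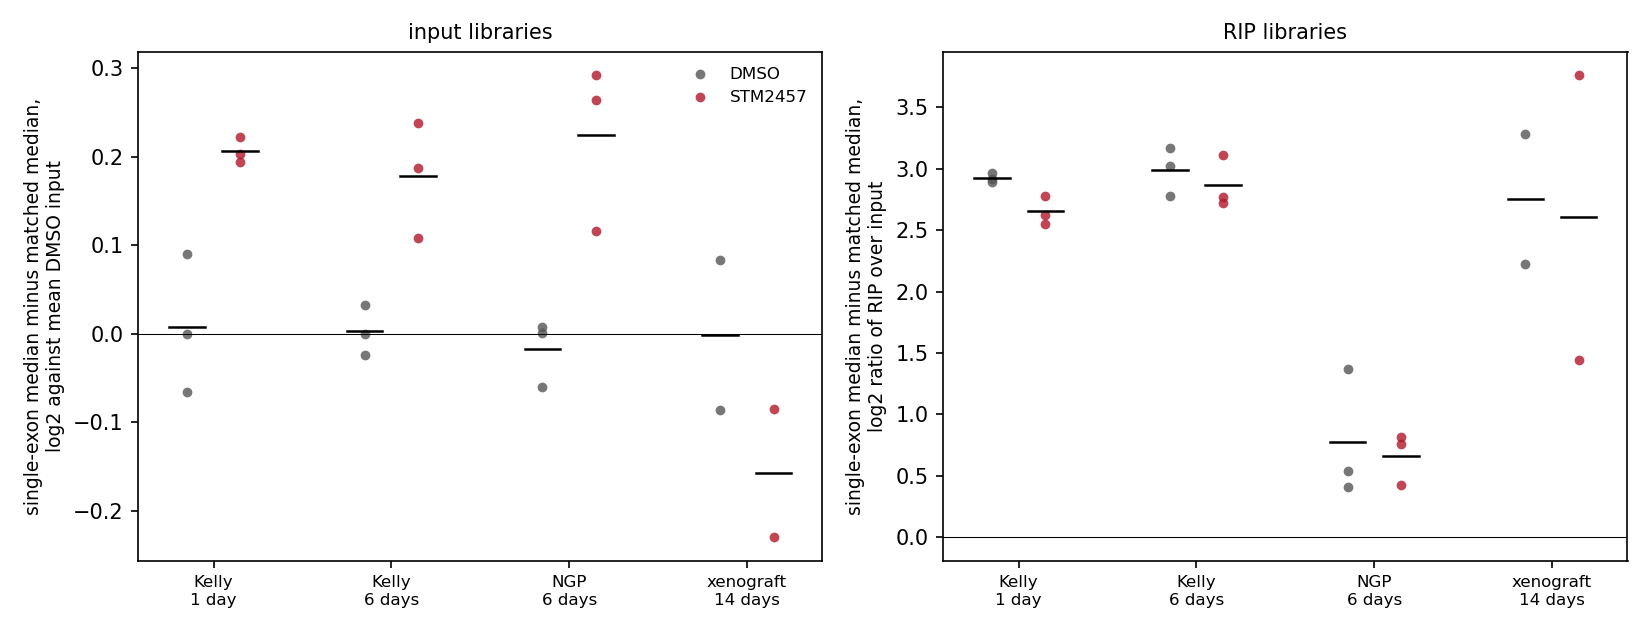
Median of the single-exon members minus the median of their matched genes in each library (log2), for inputs against the mean DMSO input (left) and for RIP libraries over the mean input of their group (right). Points are libraries and lines group means. In Kelly at 1 day the STM2457 inputs lie at 0.19 to 0.22 and the DMSO inputs at −0.07 to 0.09.

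Multi-exon genes with a similar RIP ratio rose too. Input changes followed exon number as the RIP ratios did: in Kelly at 1 day the median was 0.19 for genes with 1 exon and 0.19 for those with 2, then 0.07, −0.01 and −0.02. Multi-exon genes were next matched on level and on the DMSO ratio of another experiment, a comparison added after the data had been seen. At 1 day these genes had a median change of 0.11, and 107 of 500 rose and 6 fell. At 6 days their median was 0.12 with 105 rises and 39 falls, and in NGP it was 0.16. The distance between single-exon members and matched genes thereby went from 0.18 to 0.08, from 0.14 to 0.04 and from 0.23 to 0.07 on the log2 scale in the 3 cultures.

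Within the single-exon members the change did not follow the ratio: over the 100 genes, rho between the 6 day DMSO ratio and the 1 day input change was −0.0233, against 0.445 over multi-exon genes. Spearman's correlation between the change and GC content was 0.401 at 1 day and 0.144 at 6 days in Kelly over the single-exon members. Over multi-exon genes it was 0.0525 and 0.002. In NGP the single-exon members had 0.409 and multi-exon genes 0.238, and in the xenograft 0.0441 and 0.152. Changes of the 100 genes were ranked alike between cultures, with rho 0.511 between Kelly at 1 and 6 days and 0.466 between Kelly at 6 days and NGP. These are descriptions across genes.

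Between the cultures, 7 single-exon members rose in all 3: CENPB, FEM1A, IRF2BP1, KCTD12, SOX12, TIGD5 and ZCCHC3. How many of all genes rose in all 3 is not given, so this overlap has no background beside it. KCTD12 (chr13:76880175-76886405) encodes an auxiliary subunit of GABA-B receptors. Its Kelly 1 day inputs went from 39.4, 43.99 and 42.9 CPM to 52.6, 56.6 and 56.1 CPM (log2 change 0.36, SE 0.07, edgeR adjusted p = 0.00209). At 6 days they went from 15.5, 17.9 and 14.7 CPM to 41.3, 39.7 and 48.2 CPM (1.30, SE 0.11, edgeR adjusted p = 4.31e-07), and in NGP from 43.3, 25.8 and 34.9 CPM to 69.6, 66.0 and 55.0 CPM (0.80, SE 0.20, edgeR adjusted p = 0.0228). The groups did not overlap in any culture, and the xenograft values of 11.9 and 8.11 against 9.41 and 7.46 CPM did.

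SOX12, a SOXC transcription factor of neural progenitors, rose from 169, 181 and 157 CPM to 246, 254 and 247 CPM in Kelly at 1 day (0.53, SE 0.05, edgeR adjusted p = 4.85e-06). It rose by 0.80 at 6 days and 0.71 in NGP. Its relative SOX4 rose from 48.5, 49.1 and 45.6 CPM to 65.6, 62.4 and 70.5 CPM at 1 day (0.45, edgeR adjusted p = 0.000329). At 6 days SOX4 went from 37.7, 38.5 and 37.3 CPM to 87.9, 80.1 and 92.1 CPM (1.08, SE 0.08, edgeR adjusted p = 7.1e-08). In NGP, where SOX4 was far higher at 247, 290 and 241 CPM, the STM2457 inputs of 269, 309 and 225 CPM spanned the same range (−0.03, SE 0.16, edgeR adjusted p = 0.954). SOX11, the third SOXC gene, was not called in any culture, with 0.12, −0.07 and 0.03.

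The largest rises in Kelly at 1 day were those of CCDC85B, FNDC10, SLC18A3 and FBLL1. CCDC85B, a coiled-coil protein, went from 13.05, 20.2 and 14.0 CPM to 30.6, 35.1 and 31.0 CPM (1.01, SE 0.13, edgeR adjusted p = 5.4e-05). FNDC10, a membrane protein with a fibronectin domain, went from 18.3, 18.6 and 15.9 CPM to 30.3, 31.5 and 30.1 CPM (0.78, SE 0.09, edgeR adjusted p = 3.13e-05) and rose by 0.53 at 6 days. Its NGP change of 1.54 was not called (SE 0.52, edgeR adjusted p = 0.098). SLC18A3, the vesicular acetylcholine transporter, rose by 0.70 and FBLL1, a fibrillarin-like methyltransferase, by 0.66 at 1 day. Of these 4, only CCDC85B and FNDC10 were enriched in the RIP libraries at 1 day, with ratios of 3.85 and 1.93. SLC18A3 had 0.34 and FBLL1 0.12.

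ADRA2A, which binds noradrenaline, was not called at 1 day (0.16, edgeR adjusted p = 0.122). At 6 days it rose from 16.1, 14.7 and 15.5 CPM to 36.7, 34.0 and 34.3 CPM (1.08, SE 0.11, edgeR adjusted p = 1.8e-06). In NGP it went from 38.8, 48.5 and 40.4 CPM to 136, 132 and 87.5 CPM (1.41, SE 0.19, edgeR adjusted p = 5.84e-05), the largest rise called among members in NGP. In the xenograft both STM2457 inputs were lower, at 4.08 and 13.5 CPM against 23.0 and 21.7 CPM, and the difference was not called.

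The single-exon members that fell included factors that regulate transcription. CEBPB, a transcription factor of inflammation and differentiation, fell at 6 days from 102, 96.9 and 90.2 CPM to 52.6, 54.7 and 67.1 CPM (−0.86, SE 0.08, edgeR adjusted p = 1.83e-06), and was not called at 1 day (0.26). UQCRHL, a copy of a respiratory chain gene, and EXOSC6, a subunit of the RNA exosome, fell by 0.81 and 0.80 at 6 days. INSM2, a zinc finger factor related to INSM1, fell by 0.36 at 6 days and by 0.55 in NGP, there from 264, 218 and 283 CPM to 193, 195 and 161 CPM (edgeR adjusted p = 0.0394). It was the 1 single-exon fall in NGP. Its DMSO ratio was 1.90 and 1.79 in Kelly at 1 and 6 days and 0.46 in NGP, where it was not called. Among spliced members FAU, a ribosomal protein fused to a ubiquitin-like domain, fell at 1 day from 444, 463 and 439 CPM to 372, 350 and 368 CPM (−0.33, SE 0.05, edgeR adjusted p = 8.67e-05). FAU fell by 0.87 at 6 days. RPL23 fell in all 3 cultures, by 0.24, 0.52 and 0.76, and UQCRB fell by 1.01 in NGP. MEX3B, a spliced member that encodes an RNA-binding ubiquitin ligase, rose by 0.36 and 0.89 in Kelly and had 0.04 in NGP.

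**Figure D5:**
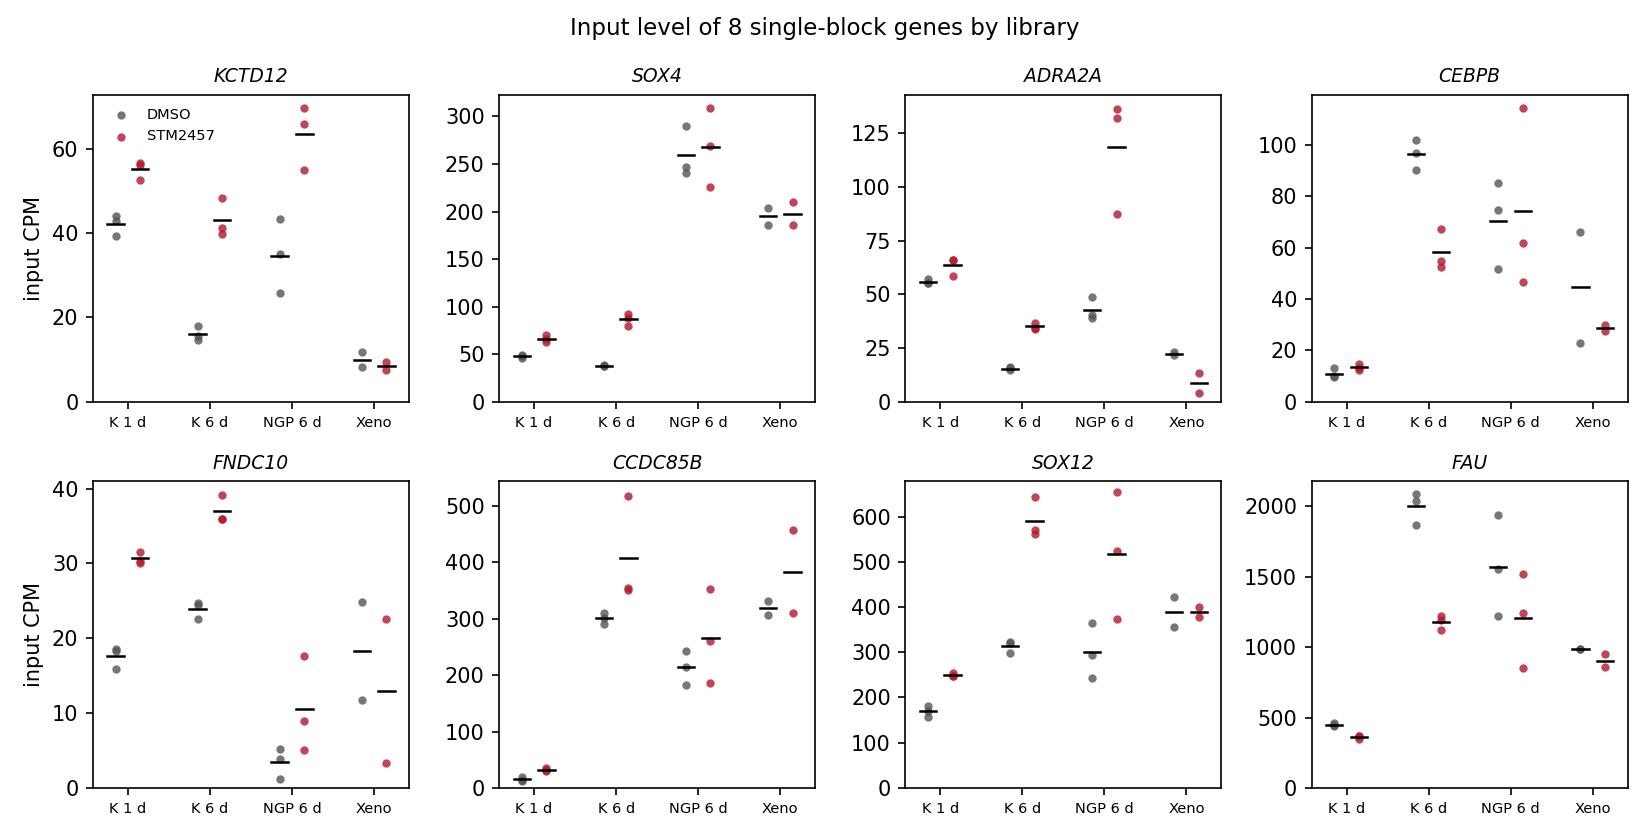
Input level (CPM, linear axis) of 8 members in every input library, by experiment and treatment, with lines at group means. KCTD12 and SOX12 are higher with STM2457 in each culture, SOX4 in Kelly but not in NGP, CEBPB is lower in Kelly at 6 days, and FAU is lower in both Kelly cultures.

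By role, 5 members stood on a list of signalling and adaptor genes: the GTPase gene RHOB, and NRARP, MAB21L1, MAB21L2 and IER5L. All 5 rose at 1 day, with changes between 0.28 and 0.50. At 6 days 2 of them rose and IER5L fell by 0.38. Of the 7 genes on the transcription factor list 2 rose at 1 day, 3 rose and 2 fell at 6 days, and 1 rose and 1 fell in NGP. Of the 5 glycosylation and other enzymes, 3 rose at 1 day and 1 at 6 days. The exon junction complex genes had 3 falls and no rise at 1 day, 2 of each at 6 days and 1 fall in NGP, and their median changes stayed between −0.14 and −0.03 in the cultures. Of 19 mRNA export genes tested at 1 day, 1 rose and 2 fell. Over all genes tested, 9.41% rose and 8.06% fell at 1 day. The shares were 11.9% and 14.7% at 6 days and 2.07% and 2.16% in NGP. Since 41 of 100 single-exon members rose at 1 day, these small counts do not set any list of members apart. Whether a list differs from the other members was not tested.

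The ratio of RIP over input changed little for most single-exon members relative to other genes. These changes share the inputs of the preceding comparison, so a rise in the inputs alone lowers them. At 1 day in Kelly 4 of 100 were higher and 17 lower with STM2457, with a median of −0.09 on the log2 scale, where 9.53% of 13669 genes were higher and 7.62% lower. RLE size factors turned this split to 9 higher and 14 lower with a median of 0.00, and DESeq2 gave 10 and 16. The matched genes had 37 higher and 30 lower. Of the 33 spliced members 11 were higher and 6 lower, so over all 135 the counts were 15 and 23, which RLE size factors turned to 20 and 17. At 6 days no single-exon member was higher and 1 lower (1.26% and 0.803% of 13324 genes), and 21 had an unadjusted p under 0.05. The number called went from 1 to 11 without STM2457 RIP replicate 1, to 2 without STM2457 RIP replicate 2 or 3 or DMSO RIP replicate 1, and to 0 without any 1 of the inputs. In NGP and the xenograft edgeR called none of the members (0% of genes in both), with 3 and 2 single-exon members at an unadjusted p under 0.05. DESeq2 called 0 single-exon members in the xenograft.

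This measure cannot show a loss of m6A shared by all genes, since each library is scaled to its own total. The mitochondrially encoded mRNAs, which are not substrates of METTL3, took 0.794% to 0.920% of the Kelly 1 day RIP counts with DMSO and 2.30% to 2.48% with STM2457. At 6 days the RIP shares were 0.265%, 0.302% and 0.0767% with DMSO and 0.537%, 0.450% and 0.336% with STM2457. The 6 day inputs with STM2457 had 5.09%, 4.06% and 1.79%, so this reference varied widely between replicates there. Scaled to these mRNAs, 97 of 100 single-exon members were lower with STM2457 at 1 day and 56 at 6 days, and none were higher. Of all genes, 61.1% were lower and 0.0951% higher at 1 day, and 28.8% and 0.0375% at 6 days. The single-exon medians were −1.53 and −2.12, close to the −1.47 and −1.93 over all genes. In NGP and the xenograft this scaling called no change in ratio in either direction (0 of 13088 and 0 of 12626 genes). The spike-in RNAs added to the samples were not used here.

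Among called members whose groups did not overlap, FBLL1, TTC9B and RHOB had the largest falls in ratio at 1 day. FBLL1 RIP libraries went from 21.2, 22.6 and 20.7 CPM to 7.18, 5.86 and 8.70 CPM while its inputs rose, and its ratio changed by −2.17 (SE 0.28, edgeR adjusted p = 0.000229). It was also the 1 single-exon member called at 6 days, where the RIP libraries went from 163, 123 and 188 CPM to 48.8, 55.7 and 51.7 CPM (−1.34, edgeR adjusted p = 0.0282). RHOB, an endosomal GTPase, went from 545, 471 and 479 CPM to 286, 310 and 317 CPM in the RIP libraries and from 58.1, 69.7 and 60.4 CPM to 86.6, 96.3 and 88.4 CPM in the inputs (ratio change −1.15, SE 0.12, edgeR adjusted p = 4.38e-05). In both genes neither library type overlapped between treatments. ADRA2A fell from 156, 134 and 156 CPM to 78.5, 81.0 and 77.3 CPM in the RIP libraries at 1 day (edgeR adjusted p = 0.000263 for the change in ratio), and its inputs were called higher at 6 days but not at 1 day.

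By the same rule, the largest gains in ratio at 1 day were in spliced members, PET100 with 1.88, FAU with 1.46 and SELENOH with 1.44. SELENOH had −0.02 under the mitochondrial scaling. For SOX12, whose inputs rose in all 3 cultures, the ratio change at 1 day was −0.11 (SE 0.09, edgeR adjusted p = 0.501). The exon junction complex genes had 8 higher and 1 lower at 1 day, with a median of 0.80.

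The input response differed between experiments for some members. Between Kelly at 6 days and at 1 day, 22 of 135 members differed in a test of the difference itself (edgeR interaction term), 6 with a higher change at 6 days and 16 with a lower one, against 3.67% and 4.73% of 13773 genes. Of the 22, 16 were single-exon members, 5 higher and 11 lower. Between NGP and Kelly at 6 days 3 members differed, SOX4, MAB21L1 and MEX3B, all with a lower change in NGP (0.796% of 13448 genes were higher and 0.565% lower). Each experiment has its own processing folder in the file headers, so batch and experiment cannot be told apart.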

How the data were processed

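The authors deposited 1 table of raw fragment counts per gene and library. Per the file headers, featureCounts 1.5.3 summed paired-end fragments on exons by gene name (protein-coding GENCODE 33), with no option for strand or for fragments on several genes. The submitters' processing notes name HISAT2 2.1.0, Trimmomatic 0.36, Subread 1.5.3 and GRCh38. Tests were edgeR 4.0.16 quasi-likelihood tests (R 4.3.3; TMM; filterByExpr with a minimum count of 10 and total of 15) with two-sided Benjamini-Hochberg adjusted p-values over all genes at 0.05, each experiment fitted alone. Input changes used inputs only. RIP ratios and their changes (interaction term) used all 4 groups of an experiment. Per-library ratios used a pseudocount of 0.1 CPM. The members and lists were chosen with earlier results of these data known. Genes named are the 6 highest minimum and 6 lowest maximum DMSO ratios over the cultures, the 4 largest called input changes and 3 largest called ratio changes each way whose groups do not overlap, the 5 highest levels per kilobase, the 3 genes on either side of the minimum and the role lists. Alternatives were RLE factors, DESeq2 1.42.0, no filter, a replicate block, all inputs in 1 fit, mitochondrial scaling, each library left out, a minimum of 20 CPM and other matchings. Deviations of same-numbered replicates correlated at −0.37 to 0.367, in no pair of groups above 0.1 for every number, so they were not paired. All 40 replicate pairs differed by more than sampling noise (lowest chi-square per degree of freedom 2.75). The fits were tested on simulated counts. Library totals, given in the results, set the precision. Canonical transcripts came from GENCODE 44, in which 133 members were found.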

Additional observations from a re-analysis of the deposited data

Results flagged for a closer look

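These members are listed because a test of the difference between 2 experiments (edgeR interaction term over the inputs) passed the threshold. Between Kelly at 6 days and at 1 day, 22 members differed. The change with STM2457 was lower at 6 days by the following amounts on the log2 scale. For CEBPB the difference was −1.11 and for UQCRHL −0.924. CCDC85B had −0.679, FBLL1 −0.65, SLC18A3 −0.64 and EXOSC6 −0.636. The spliced members FAU, TTC9B and RPS15 had −0.525, −0.443 and −0.377. The change was higher at 6 days by 0.55 for MEX3B, 0.651 for SOX4, 0.939 for ADRA2A and 0.949 for KCTD12.

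CCDC85B, FBLL1 and SLC18A3 were among the largest rises at 1 day, and KCTD12, ADRA2A and SOX4 the largest single-exon rises at 6 days. These genes were therefore named from the same inputs that the difference uses. UQCRHL shares much of its sequence with UQCRH, which fell by 0.63 at 6 days, so its value is uncertain.

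Between NGP and Kelly at 6 days 3 members differed, with SOX4 at −1.13 and MEX3B at −0.882 and MAB21L1 at −0.95. In the DMSO inputs SOX4 stood at 241 to 290 CPM in NGP and at 37.3 to 38.5 CPM in Kelly at 6 days.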

How the results depend on the processing

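Counts are given for all members, with single-exon members in brackets. Shares over all genes are given above for the main fits and the mitochondrial scaling only. With all inputs in 1 fit, the calls for input changes went from 49 to 1 (41 to 1) in Kelly at 1 day, from 61 to 14 (42 to 8) at 6 days, from 12 to 20 (9 to 14) in NGP and from 0 to 33 (0 to 26) in the xenograft. DESeq2 called 9 (5) ratio changes in Kelly at 6 days, and in the xenograft 7 (3) input changes, 1 ratio change and 61 (49) DMSO ratios. With no low-count filter the xenograft gave 4 (3) input changes and 51 (40) DMSO ratios. The replicate block, although the numbers did not pair the samples, gave 0 (0) ratio changes at 6 days, 19 (14) input changes in NGP, and 2 (1) input changes and 14 (8) DMSO ratios in the xenograft. Mitochondrial scaling gave 121 (97) ratio changes at 1 day, 72 (56) at 6 days, 79 single-exon DMSO ratios in NGP and 0 (0) in the xenograft. It reversed the DMSO ratio of FAU at 1 day (0.19) and of EIF5AL1 (1.29), FAU (2.24), RPL13 (0.90), RPL18 (0.48), RPS15 (0.91) and TRMT112 (1.97) at 6 days, and the ratio change of SELENOH (−0.021 and −0.55).

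The distance in medians between members and matched genes moved as follows. With the 1 nearest gene it was 2.82 (2.997) for DMSO ratios at 1 day and 2.97 for members at 6 days, −0.22 (−0.20) for ratio changes at 1 day, and 0.043 for single-exon input changes in the xenograft, which reversed. A minimum of 20 CPM gave 2.81 (3.17) for ratios at 1 day and 0.015 for members' input changes at 6 days. GC matching gave 2.325 (2.497) and 2.322 (2.56) for ratios at 1 and 6 days, reversed the single-exon ratio change at 1 day (0.019) and the members' xenograft input change (−0.082), and gave −0.26 for single-exon members there. Matching on the RIP ratio gave input changes of 0.074 (0.078) at 1 day, −0.0082 (0.040) at 6 days, reversed for all members, and 0.027 (0.067) in NGP. Matching on exonic length gave 2.94 (3.07) and 3.23 for ratios and 0.15 (0.22) for input changes at 6 days. Matching on the longest exon gave ratios of 2.37 (2.15) and 2.47 (2.21), and matching on the experiment's own level 2.92 at 6 days. The cause of these shifts was not tested.

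With 1 library left out, calls ranged over 0 to 66 (0 to 53) for xenograft DMSO ratios, 0 to 17 (0 to 11) for ratio changes at 6 days, 1 to 13 (1 to 10) for NGP and 0 to 25 (0 to 17) for xenograft input changes, and 2 to 5 for response differences of NGP. Distances of members ranged over 2.67 to 2.83 and 2.59 to 2.69 for ratios at 1 and 6 days, −0.21 to −0.00073 for ratio changes at 6 days, and 0.036 to 0.103, 0.083 to 0.22 and −0.067 to 0.072 for input changes at 6 days, in NGP and for the tumours. The lowest tumour value, without STM2457 replicate 2, reversed. Distances of single-exon members ranged over 2.86 to 3.004 for ratios at 1 day, 0.44 to 0.98 in NGP, 2.23 to 3.29 in the xenograft, and 0.17 to 0.24, 0.11 to 0.21, 0.17 to 0.32 and −0.26 to −0.096 for input changes. Without members that overlap another gene, members' distances were 2.82 and 2.85 for ratios and 0.11 for input changes at 6 days. Without members that have a spliced transcript, single-exon distances were 2.87 for ratios at 1 day and −0.27 for xenograft input changes. Of the other values compared, 1831 stayed on their side of the threshold or within the replicate spread. In the xenograft, library totals were 2.15 to 11.8 in units of 1e6 fragments.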

Other observations

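The level of several members differed widely between the DMSO inputs of the 2 Kelly cultures, which the labels give the same line and vehicle. CCDC85B had a mean of 15.7 CPM at 1 day and 301 CPM at 6 days, a log2 difference of 4.25. CEBPB and IER5L were also at least 4-fold higher at 6 days, and 2 single-exon members were at least 4-fold lower. Of the 33 spliced members, 7 were at least 4-fold higher (NT5C, NME3, RPL13, FAU, RPS19BP1, TCEAL9 and TTC9B) and 2 lower. The median difference was 0.08 for single-exon members, 0.74 for spliced members and −0.63 for the genes matched to the single-exon members, of which 8 of 500 were at least 4-fold higher and 45 lower. Over all multi-exon genes of at least 10 CPM it fell with transcript length (rho −0.533) and rose with GC content (rho 0.467). No test of day alone is possible here, since day and experiment cannot be told apart.

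The 15 single-block genes of at least 10 CPM left out by name behaved less uniformly than the single-exon members. In Kelly at 1 day 7 were enriched and 4 depleted, against 26.3% and 29.1% of all genes, with a median log2 ratio of 0.97. In NGP 3 were enriched and 7 depleted, against 20.9% and 19% of all genes, with a median of −0.51. The enriched count in NGP is thus near the share over all genes. With STM2457, the Kelly inputs showed 4 rises and 1 fall at 1 day and 3 rises and 2 falls at 6 days. Over all genes 9.41% rose and 8.06% fell at 1 day, and 11.9% and 14.7% at 6 days. Of the 1015 single-block genes, 767 were under 1 CPM. Their summed level was 37.2 to 42.0 CPM in the Kelly 1 day DMSO inputs and 41.4 to 45.3 CPM in those with STM2457, and 124 to 143 CPM in the DMSO RIP libraries.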
